A study of Homo sapiens with 6 samples.

Results

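The metallothionein genes MT1A, MT1E, MT1F, MT1G, MT1H, MT1M, MT1X and MT2A, with MTF1, the gene of the factor that switches them on, were taken by their symbols from the gene tables of Hep3B cells. All 9 symbols were found among 23228 genes. RNA was sequenced in 3 control and 3 PELP1-KD libraries. Hep3B is an established human hepatocellular carcinoma line, grown in RPMI medium. Control cells carried a lentiviral non-targeted shRNA, and PELP1-KD cells a lentiviral shRNA against PELP1, a scaffold protein of chromatin and nuclear receptor complexes. The shRNA, a hairpin-shaped RNA, is trimmed inside the cell to a guide that targets the mRNA of matching sequence for degradation. The PELP1-KD cells were stable clones selected with puromycin and pooled. The PELP1-KD titles name the first PELP1 shRNA, whereas the protocol in the labels names both of the study's shRNAs. The comparison asked how the RNA of genes differs between control and PELP1-KD cells. Nothing in the labels says that replicates were separate cultures, so p-values measure the spread between these libraries, which may be technical.

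Metallothioneins are small cysteine-rich proteins that bind zinc, copper and cadmium, buffer free zinc and scavenge oxidants. In liver cells, the main site of their synthesis, MT2A and the MT1 genes are induced by metals, glucocorticoids and oxidative stress. MTF1 is a zinc-finger factor that senses zinc, enters the nucleus and binds short metal response elements, which are repeated in metallothionein promoters. Free zinc itself is set by the SLC30 exporters, which move zinc out of the cytosol, and by the SLC39 importers, which move it in.

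The metallothionein members lie together on chromosome 16 of hg19, over 75.6 kb from 56642478 to 56718108, and MTF1 lies on chromosome 1 from 38275239 to 38325292 on the minus strand. MT1G alone among the metallothionein members is on the minus strand. The 200 bases before the annotated start are shown for 3 of them, because these windows hold the metal response element cores, the motif that MTF1 is known to bind. Their positions in hg19 are chr16:56642278-56642477 for MT2A, chr16:56703526-56703725 for MT1H and chr16:56716182-56716381 for MT1X. Each is written 5′ to 3′ on the strand of its gene, and capitals mark the cores TGCACNC and TGCGCNC on either strand.
MT2A: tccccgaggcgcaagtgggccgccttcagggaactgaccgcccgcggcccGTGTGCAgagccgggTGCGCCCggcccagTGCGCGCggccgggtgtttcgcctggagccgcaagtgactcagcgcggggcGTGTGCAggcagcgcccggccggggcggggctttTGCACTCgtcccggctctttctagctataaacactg
MT1H: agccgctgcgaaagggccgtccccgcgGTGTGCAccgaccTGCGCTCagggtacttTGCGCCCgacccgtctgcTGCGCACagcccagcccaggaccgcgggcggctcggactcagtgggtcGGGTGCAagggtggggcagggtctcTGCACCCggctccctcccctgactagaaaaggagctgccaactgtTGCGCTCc
MT1X: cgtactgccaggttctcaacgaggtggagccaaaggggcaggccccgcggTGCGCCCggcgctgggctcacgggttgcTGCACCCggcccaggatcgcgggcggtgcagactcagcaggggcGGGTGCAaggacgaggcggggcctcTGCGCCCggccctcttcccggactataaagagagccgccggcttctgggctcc

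In the 250 bases before the start, the core was found 8 times for MT1H, 6 times each for MT1F and MT2A, 5 times for MT1G, 4 times for MT1X, 3 times for MT1M, and 1 time each for MT1A and MT1E. MTF1 itself had 0. Of 22912 windows of this length before annotated genes, 27.6% held at least 1 core, 1.76% at least 3 and 0.0742% at least 6. TATAAA was found before MT1G, MT1X and MT2A (9.63% of all windows), and TGACNNNGC, the core of the antioxidant response element, before MT1X and MT2A (11% of all windows). Motifs were searched on both strands, and overlapping matches were kept. A match describes the letters of the window only, and the windows move with the annotated start.

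**Figure D1:**
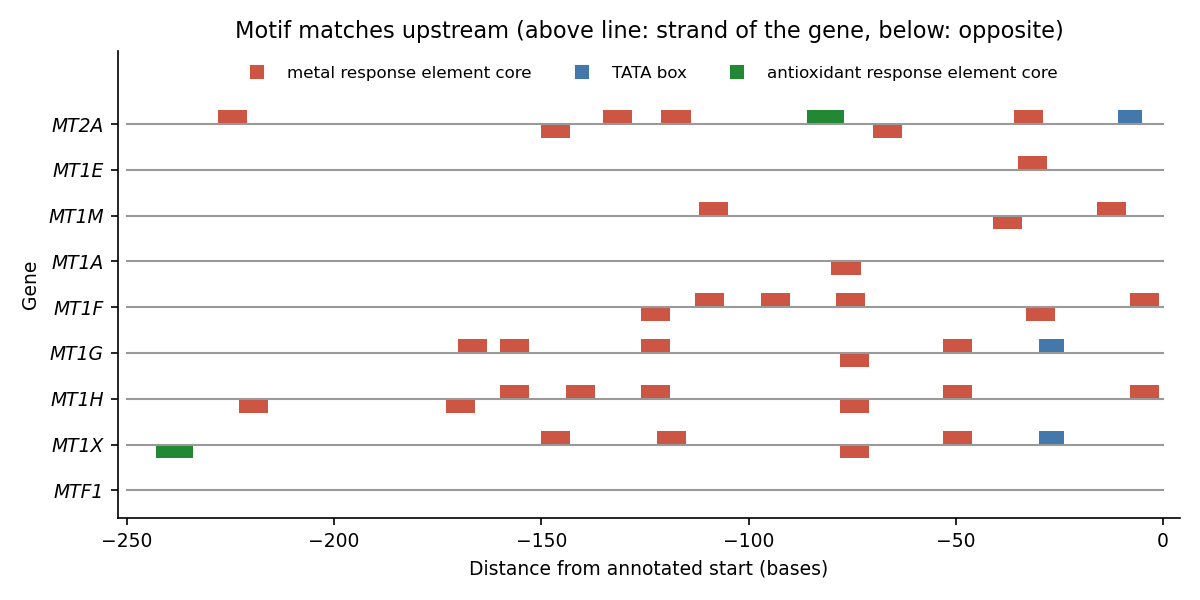
Matches to 3 motifs in the 250 bases before the annotated start of each member (x axis, bases from the start). Boxes above a line are on the strand of the gene and boxes below it on the opposite strand, and MTF1 has no match to any of them.

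The metallothionein members resemble each other, with between 63.7% and 88.3% identical bases between the spliced exons of a pair (28 pairs, median 75.3%). The upstream windows were less alike, with a median of 53.6% and a range of 43.1% to 80.6%. MT1G and MT1H were the closest pair in both (88.3% and 80.6%). This likeness may bear on the counts. A read that matched several places entered as fractions, and only at a mapping quality of at least 2. Of the windows of 50 bases in their exons, 100% lay at a single place of the genome for MT1A and MT1F, 93.9% for MT1E, 91.6% for MT1G, 91.2% for MT1H, 89.9% for MT1X, 86.4% for MT2A and 86.0% for MT1M. Among the deposited values, MT1A, MT1E, MT1F, MT1M and MT2A each had 1 that was not whole, and MT1G, MT1H and MT1X had 0. How many reads of shared stretches the quality limit left out is not known.

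Reads on genes ranged from 26758363 to 34456542 per library. The quasi-likelihood test of edgeR was run on the 14537 genes left by its low-count filter, and a gene was called when its Benjamini-Hochberg adjusted p was below 0.05. A log2FC is the log2 of the ratio of PELP1-KD to control, given ± its standard error (SE). The median log2FC of all tested genes was 0.00. PELP1 RNA was at 94.5% of the control level, with 4970 ± 115 normalized reads (SD, n = 3) in control and 4695 ± 238 (SD, n = 3) in the other libraries (log2FC = −0.08 ± 0.04, adjusted p = 0.101 from edgeR, and 0.0106 with a block for the replicate number). Without PELP1-KD replicate 3 it was −0.10 with an adjusted p of 0.0180, and over the 14 alternative fits the adjusted p ranged from 0.0106 to 0.424. The libraries are therefore named by their labels only. Hepatocyte and hepatoma markers were present, with reads of 9 of 9 in both groups.

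Metallothionein RNA was lower in the PELP1-KD libraries. The summed normalized reads of the 8 metallothionein members were 1897, 1875 and 1835 in control and 812, 819 and 745 in PELP1-KD. The groups were far apart, and the mean fell from 1869 ± 31.1 to 792 ± 40.8 (SD, n = 3 each), to 42.4% of control. These genes took 0.00591% of all reads on genes in control and 0.00253% in PELP1-KD. MT2A supplied about as many reads as all the others together in control, and without it the sum still stood at 52.0% of control, with 925 ± 22.5 and 481 ± 26.1 normalized reads (SD, n = 3 each). In bulk RNA, fewer cells that make a transcript and less of it per cell cannot be told apart.

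Of the 9 members, 8 were tested and MT1H fell under the filter. MT2A, MT1E, MT1F, MT1X, MT1M and MT1G, 6 members, were called lower, where 26.8% of all tested genes were called lower. Of these 6, MT2A, MT1M and MT1G changed at least 2-fold, where 4.79% of all tested genes were called lower by at least 2-fold. None was called higher by edgeR, where 26.8% of all tested genes were, and none was higher by DESeq2 or at an unadjusted p below 0.05. In 6 of the 8 tested members every PELP1-KD value lay below every control value, which held for 29.3% of all tested genes. MT1M and MT1G passed the filter only through the control libraries, so they had to be lower in PELP1-KD, and no weight is placed on the counts that include them. For each of these 6, the two-sided exact permutation test on normalized reads gave p = 0.1, the smallest that 3 against 3 libraries allow.

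**Figure D2:**
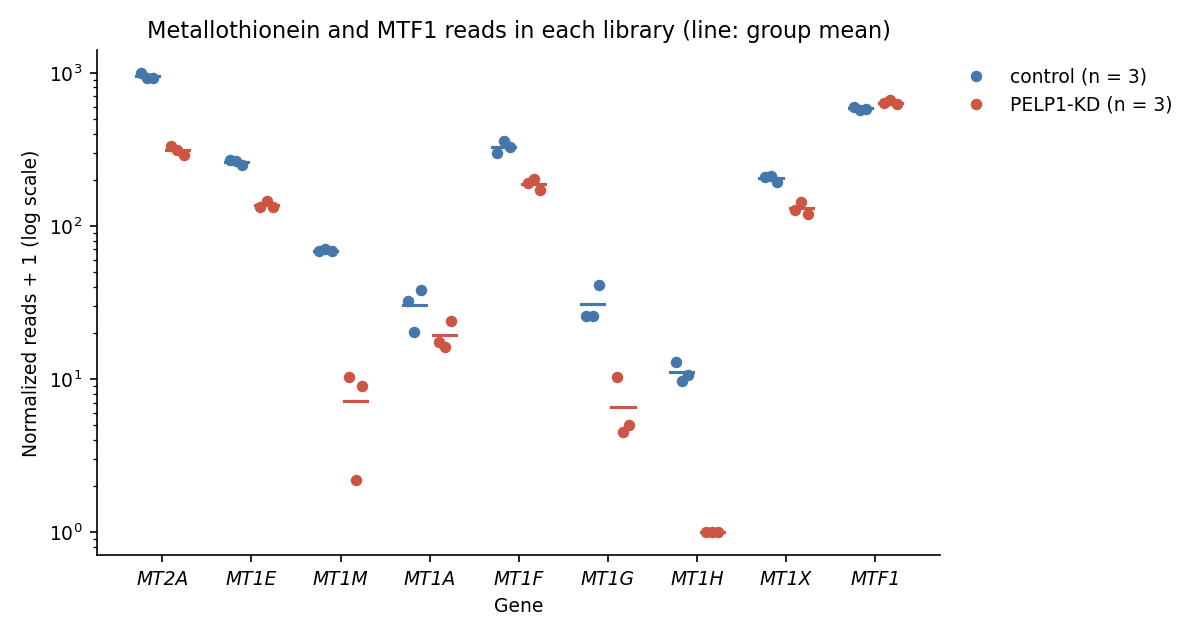
Normalized reads plus 1 of the 9 members (y axis, log scale) in each of the 3 control and 3 PELP1-KD libraries, with a line at the group mean. The groups do not overlap for MT2A, MT1E, MT1M, MT1F, MT1G, MT1H and MT1X, in which PELP1-KD is lower, nor for MTF1, in which it is higher, and they overlap for MT1A. Of all 14537 tested genes, 29.3% lay wholly below control and 4292 genes wholly above. MT1M and MT1G passed the filter only through the control libraries, and MT1H was not tested.

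MT2A, the gene of the most widely expressed metallothionein in human tissues, gave the largest share of the family's reads. It lies on chromosome 16 from 56642478 to 56643409 and has 3 exons of 419 bases together. Control libraries held 1081, 965 and 959 of its reads, and PELP1-KD libraries 323.5, 267 and 290. Every PELP1-KD library was far below every control library. MT2A fell from a mean of 944 ± 41.4 to one of 311 ± 21.0 normalized reads (SD, n = 3 in each group), to 33.0% of control. Its log2FC was −1.60 ± 0.07 (95% interval from −1.75 to −1.46, adjusted p = 2.24e-13 from edgeR), and it lay between −1.65 and −1.55 in the 14 alternative fits.

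MT1E, MT1F and MT1X, the other abundant isoforms, fell by less. MT1E, at 56659585 to 56661024, had 290, 276.5 and 260 reads in control and 128, 124 and 132 in PELP1-KD. The control values were close to each other and all above the PELP1-KD values. It fell to 52.4% of control, from a mean of 259 ± 9.93 to one of 136 ± 7.66 normalized reads (SD, n = 3 in each group), with log2FC = −0.94 ± 0.10 (SE) and adjusted p = 1.33e-07.

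MT1F, at 56691855 to 56693215, had 324, 370 and 342.67 reads in control and 184, 172 and 171 in PELP1-KD. The groups did not overlap. MT1F fell to 57.2% of control, from a mean of 326 ± 28.8 to one of 187 ± 15.0 normalized reads (SD, n = 3 in each group), with log2FC = −0.81 ± 0.10 (SE) and adjusted p = 7.18e-07.

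MT1X, at 56716382 to 56718108 and the last gene of the cluster, had 227, 218 and 200 reads in control and 123, 122 and 118 in PELP1-KD. It too did not overlap between groups. MT1X fell to 63.5% of control, from a mean of 203 ± 10.2 to one of 129 ± 12.5 normalized reads (SD, n = 3 in each group), with log2FC = −0.66 ± 0.11 (SE) and adjusted p = 4.30e-05. MT1E, MT1F and MT1X were called lower in all 14 alternative fits.

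MT1M, MT1G and MT1H had few or no reads left in PELP1-KD. MT1M, at 56666534 to 56667898, had 73, 72 and 70.83 reads in control and 9, 1 and 8 in PELP1-KD. The control libraries were nearly equal, while PELP1-KD replicate 2 had the lowest value. MT1M fell to 9.02% of control, from a mean of 67.9 ± 1.05 to one of 6.12 ± 4.34 normalized reads (SD, n = 3 in each group), with log2FC = −3.40 ± 0.32 (SE; 95% interval from −4.07 to −2.72) and adjusted p = 2.87e-08.

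MT1G, at 56700653 to 56701977, had 27, 26 and 42 reads in control and 9, 3 and 4 in PELP1-KD. Control replicate 3 was the highest of its group, and the groups did not overlap. MT1G fell from a mean of 29.9 ± 8.79 to one of 5.57 ± 3.17 normalized reads (SD, n = 3 in each group), with log2FC = −2.38 ± 0.40 (SE; 95% interval from −3.21 to −1.55) and adjusted p = 4.22e-05. The intervals of MT1M and MT1G are wide, and in the alternative fits they lay between −3.78 and −2.96 and between −2.95 and −2.11.

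MT1H, the neighbour of MT1G at 56703726 to 56705041, had 13, 9 and 10 reads in control and 0 in each PELP1-KD library. With 32 reads against 0, it was 9.50-fold lower when 3 reads were taken as the floor over the 3 PELP1-KD libraries. That value takes the control reads as exact and is no 95% bound. The 95% interval of the ratio of reads, exact binomial and for counting error only, had a lower bound of 7.29. MT1H was not tested, since it passed the filter in 1 of the 3 control libraries only.

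MT1A, which lies between MT1M and MT1F, was not called. It had 34, 20.5 and 39 reads in control and 16, 13 and 23 in PELP1-KD. The groups overlapped, since control replicate 2 had fewer normalized reads (19.2) than PELP1-KD replicate 3 (23.0). MT1A stood at 29.2 ± 9.18 and 18.2 ± 4.20 normalized reads (SD, n = 3 each), with log2FC = −0.67 ± 0.30 (SE; 95% interval from −1.30 to −0.04) and adjusted p = 0.0689. With the replicate number as a block it was −0.68 with an adjusted p of 0.0473. It was also called without control replicate 2 (−0.90, adjusted p = 0.0215) and without PELP1-KD replicate 3 (−0.88, adjusted p = 0.0339), the libraries that overlapped. Over the 14 alternative fits its adjusted p ranged from 0.0215 to 0.283. Its log2FC was near those of MT1X and MT1F, and it rested on far fewer reads.

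The changes were set beside the number of metal response element cores before each gene. MT1H, with 8 cores, was not tested. It was 9.50-fold lower with 3 reads taken as the floor, which is no bound. The counting interval of its ratio of reads had a lower bound of 7.29. MT1F and MT2A, with 6 each, had log2FC of −0.81 and −1.60, MT1G, with 5, had −2.38, and MT1X, with 4, had −0.66. MT1M, with 3, had −3.40, and MT1E and MT1A, with 1 each, had −0.94 and −0.67. MT1G and MT1M passed the filter only through the control libraries. This is a description of 8 related genes of 1 cluster, with no test.

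MTF1, the zinc-sensing activator, was not called in either direction. It had 655, 598 and 605.33 reads in control and 614, 563 and 624 in PELP1-KD. After normalization each PELP1-KD library lay slightly above each control library, with 584 ± 14.7 and 636 ± 18.1 normalized reads (SD, n = 3 each), 109% of control. Such a separation upward held for 4292 of the 14537 tested genes. The log2FC of MTF1 was 0.12 ± 0.06 (95% interval from −0.01 to 0.25, adjusted p = 0.104), and the exact permutation test gave p = 0.1. MTF1 was called in 0 of the 14 alternative fits, with values between 0.10 and 0.15 and an adjusted p from 0.0692 to 0.269. The lower end of that interval lay above the intervals of MT2A, MT1E, MT1F and MT1X. Its RNA level does not measure the activity of the protein.

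The order of the levels was compared per length, in RPKM, which is reads per kilobase of exon scaled to library size. In control, MT2A stood highest at 71.7 ± 3.14 RPKM (SD, n = 3), followed by MT1F at 23.5 ± 2.08. MT1E (16.3 ± 0.625) and MT1X (between 15.0 and 16.5) overlapped. MT1M followed at 4.91 ± 0.0762, while MT1G (2.40 ± 0.707), MT1A (2.34 ± 0.738) and MTF1 (2.33 ± 0.0589) overlapped. MT1H was the lowest at 0.804 ± 0.136. In PELP1-KD, MT2A was still highest at 23.6 ± 1.60 RPKM, then came MT1F at 13.5 ± 1.08, MT1X at 10.1 ± 0.983 and MT1E at 8.54 ± 0.482, with no overlap between these neighbours. MTF1 (2.54 ± 0.0722) now lay above MT1A (1.46 ± 0.337). MT1G (0.448 ± 0.254) and MT1M (0.443 ± 0.314) overlapped at the lower end.

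The mix of metallothionein transcripts also differed between the groups. Per kilobase, MT2A made up 53.7%, 50.8% and 51.2% of control metallothionein reads, against 42.2%, 39.4% and 40.3% in PELP1-KD. The share of MT1F was 17.1% ± 1.64 in control and 23.2% ± 0.846 in PELP1-KD, that of MT1X 11.6% ± 0.431 and 17.4% ± 1.09, and that of MT1E 11.8% ± 0.285 and 14.7% ± 0.781 (SD, n = 3 each). MT1M made up 3.56% ± 0.0912 in control and 0.772% ± 0.547 in PELP1-KD. None of these shares overlapped between groups, while that of MT1A did (1.70% ± 0.550 in control and 2.54% ± 0.733 in PELP1-KD). MT1M passed the filter only through the control libraries. Shares of a whole move against each other, so MT1F, MT1X and MT1E could take a larger share while their own reads fell.

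Measured against MT2A in the same library, the log2 ratios of MT1A, MT1X, MT1F and MT1E were higher in PELP1-KD by 0.97, 0.95, 0.80 and 0.67. None of these 4 overlapped between groups, with p = 0.1 by the two-sided exact permutation test and 0.114 after adjustment over the 8 ratios, which include that of MTF1 (1.73). The ratios of MT1M and MT1H differed by −2.10 and −2.69. These are a description, since MT1M passed the filter only through the control libraries and MT1H had 0 reads in PELP1-KD. The ratio of MT1G differed by −0.79 and overlapped (exact permutation p = 0.3).

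**Figure D3:**
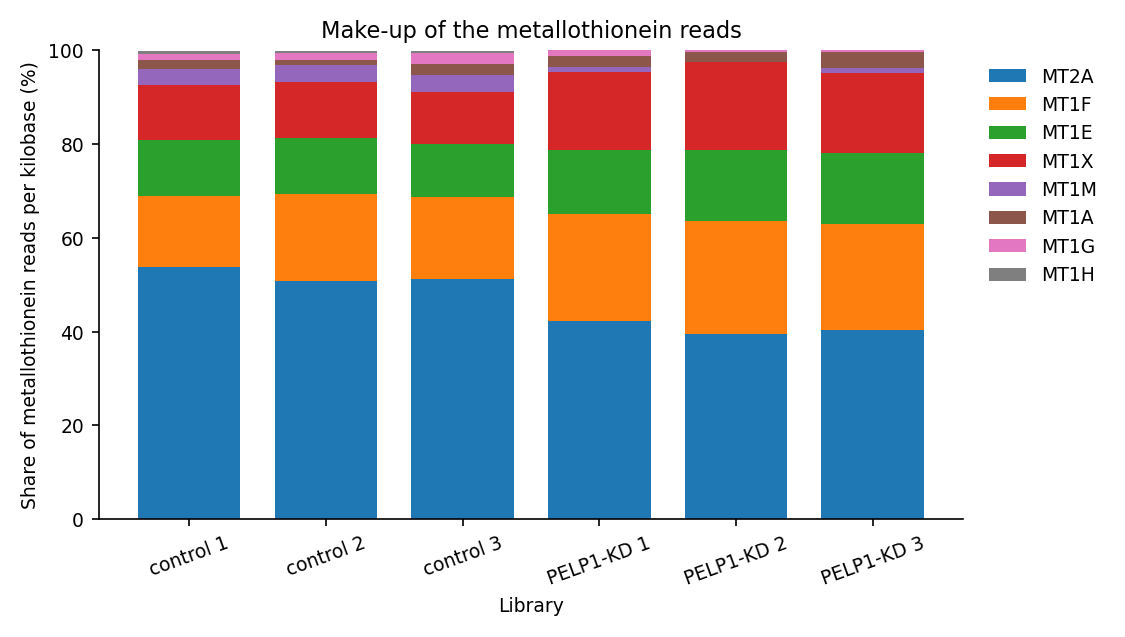
Share of each metallothionein member in the summed metallothionein reads per kilobase (y axis, percent) in each of the 6 libraries. MT2A takes between 50.8% and 53.7% in the control libraries and between 39.4% and 42.2% in the PELP1-KD libraries.

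Other metallothionein genes of the cluster had few reads. Of 7 in the tables, MT1L was tested. MT1L, a pseudogene 8.9 kb from the start of MT2A, had 38, 36 and 23 reads in control and 5, 6 and 13 in PELP1-KD. The groups did not overlap, and MT1L fell to 27.5% of control (log2FC = −1.83 ± 0.36, adjusted p = 0.000233). MT1L passed the filter in 3 control libraries and 1 PELP1-KD library. The control libraries alone were enough to keep it, so no weight is placed on its call. MT3, the brain isoform, had 22 reads in control and 7 in PELP1-KD (ratio 2.80, 95% counting interval 1.16 to 7.76). The pseudogene MT1DP had 14 reads in each group (ratio after correction for depth 0.891, 95% counting interval 0.394 to 2.02). MT1B had 2 and 1 reads and MT1JP 3 and 1, and MT1IP and MT4 had 0 in all 6 libraries.

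The fall within the cluster was set beside the genes around it. Of 16 genes within 500 kb of the span of the metallothionein members, 9 were tested, 2 were called higher, 2 were called lower and their median log2FC was 0.04. Of all tested genes, 26.8% were called higher and 26.8% lower, and the counts of this list and of those that follow stand beside these shares. NUDT21, a subunit of the cleavage factor that sets polyadenylation sites, had log2FC = −0.15 ± 0.05 (SE) and adjusted p = 0.0123. BBS2, of the BBSome of cilia, had log2FC = 0.16 ± 0.07 (SE) and adjusted p = 0.0464. NLRC5, the transactivator of MHC class I genes, rose from a mean of 77.9 ± 6.86 to one of 189 ± 25.7 normalized reads (SD, n = 3 in each group), with log2FC = 1.28 ± 0.13 (SE) and adjusted p = 1.16e-07. The called metallothionein members had values of −0.66 or lower, outside the range of these neighbours. With any control library or PELP1-KD replicate 2 left out, 2 of the neighbours were called.

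**Figure D4:**
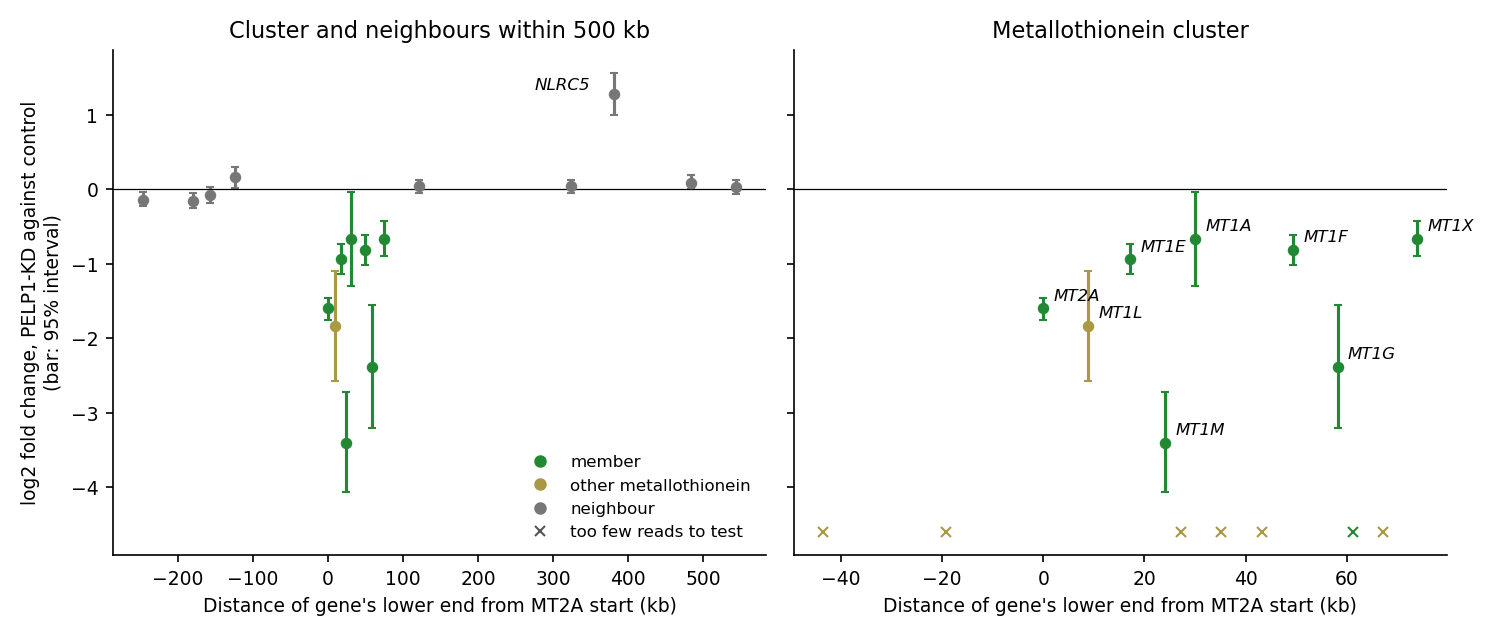
Log2 fold change of PELP1-KD against control with its 95% interval (y axis) for tested genes by position (x axis, kb from the start of MT2A), for the neighbours within 500 kb (left) and the metallothionein cluster (right). Tested metallothionein genes lie below 0, as do 7172 of all 14537 tested genes, and NLRC5 stands at 1.28. MT1M and MT1G passed the filter only through the control libraries, so they had to lie below 0. MT1L passed it in 3 control libraries and 1 PELP1-KD library. Crosses mark genes with too few reads to test.

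Zinc transporters were then counted, since MTF1 also acts on some of them. Of 10 SLC30 exporters, 8 were tested, 4 were called higher and 2 lower, with a median log2FC of 0.21. SLC30A1, the plasma membrane zinc exporter and a known MTF1 target, had 1230.5, 1092 and 1148 reads in control and 1387, 1256 and 1421 in PELP1-KD. Its groups did not overlap after normalization, and it rose from a mean of 1090 ± 40.7 to one of 1435 ± 26.5 normalized reads (SD, n = 3 in each group), with log2FC = 0.40 ± 0.05 (SE) and adjusted p = 1.30e-06. SLC30A1 thus changed in the opposite direction to the called metallothioneins. SLC30A10, a manganese exporter, rose, with log2FC = 0.59 ± 0.04 (SE) and adjusted p = 2.93e-10. SLC30A3, which fills synaptic vesicles with zinc, fell from a mean of 39.3 ± 5.40 to one of 6.10 ± 2.09 normalized reads (SD, n = 3 in each group), with log2FC = −2.68 ± 0.33 (SE) and adjusted p = 1.12e-06. It passed the filter only through the control libraries.

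Of 14 SLC39 importers, 12 were tested, 6 were called lower and 1 higher, with a median log2FC of −0.19. SLC39A5, an importer of the basolateral membrane, rose, with log2FC = 0.36 ± 0.04 (SE) and adjusted p = 5.53e-07. SLC39A11 had log2FC = −0.43 ± 0.06 (SE) and adjusted p = 5.04e-06. SLC39A3, an importer at the plasma membrane, had log2FC = −0.37 ± 0.06 (SE) and adjusted p = 3.38e-05. None of the 12 tested genes changed 2-fold. SLC39A7, among those called lower (adjusted p = 0.0449 from edgeR), was annotated on 6 sequences of hg19. Its reads, mostly fractional, are therefore less certain.

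Of 5 known MTF1 targets outside the metallothioneins, all tested, 2 were called higher and 1 lower, with a median log2FC of 0.03. Over all tested genes, 26.8% were called in each direction. PGF, which encodes placental growth factor, rose from a mean of 400 ± 31.6 to one of 645 ± 69.6 normalized reads (SD, n = 3 in each group), with log2FC = 0.69 ± 0.08 (SE) and adjusted p = 7.48e-07. SLC30A1, which is also in this list, was the other that rose. GCLC, the catalytic subunit of the enzyme that starts glutathione synthesis, had log2FC = −0.23 ± 0.06 (SE) and adjusted p = 0.00186.

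Of 7 factors that act at metallothionein promoters, 1 was called higher and 1 lower, with a median log2FC of −0.01. STAT3, which relays interleukin 6, rose, with log2FC = 0.18 ± 0.03 (SE) and adjusted p = 0.000127. NFE2L2, the oxidative stress factor, had log2FC = −0.12 ± 0.04 (SE) and adjusted p = 0.0115. HSF1, the heat shock factor, was not called (0.07, adjusted p = 0.261). Each of these differences was smaller than that of any called metallothionein. Without control replicate 2, 1 of the factors was called.

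Glucocorticoid-induced genes were counted because glucocorticoids induce MT2A. Of 8, 3 were called higher and 4 lower, with a median log2FC of −0.31. FKBP5, a chaperone of the glucocorticoid receptor, fell from a mean of 1398 ± 27.4 to one of 927 ± 32.6 normalized reads (SD, n = 3 in each group), with log2FC = −0.59 ± 0.05 (SE) and adjusted p = 6.05e-09. SGK1, a kinase that promotes sodium uptake, rose, with log2FC = 0.27 ± 0.03 (SE) and adjusted p = 1.27e-06. DUSP1, a phosphatase of MAP kinases, had log2FC = −0.32 ± 0.05 (SE) and adjusted p = 9.33e-06. CRISPLD2, a secreted protein and the only one of the list with a 2-fold change, had log2FC = −1.33 ± 0.21 (SE) and adjusted p = 1.82e-05.

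Of 8 heat shock genes, 5 were called lower and 0 higher (0 also by DESeq2 or at an unadjusted p below 0.05), where 26.8% of all tested genes were called in each direction, with a median log2FC of −0.19. HSPH1, a nucleotide exchange factor of HSP70, fell from a mean of 5337 ± 48.3 to one of 2790 ± 80.3 normalized reads (SD, n = 3 in each group), with log2FC = −0.94 ± 0.04 (SE) and adjusted p = 8.64e-14. HSPB1, a small heat shock protein, had log2FC = −0.64 ± 0.04 (SE) and adjusted p = 2.89e-10, and DNAJB1, a cochaperone of HSP70, had log2FC = −0.26 ± 0.04 (SE) and adjusted p = 2.26e-05. Reads of HSPA1A and HSPA1B are less certain, as these are near-identical copies with further copies on haplotypes of hg19.

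Of 9 copper handling genes, 4 were called higher and 3 lower, with a median log2FC of 0.11. SOD1, the copper and zinc superoxide dismutase, had log2FC = −0.39 ± 0.04 (SE) and adjusted p = 2.16e-08. CCS, its copper chaperone, rose, with log2FC = 0.29 ± 0.04 (SE) and adjusted p = 1.15e-05. ATP7A, a copper pump, rose, with log2FC = 0.31 ± 0.08 (SE) and adjusted p = 0.00202. Without control replicate 1, or without PELP1-KD replicate 2, 3 of these genes were called in place of 7.

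**Figure D5:**
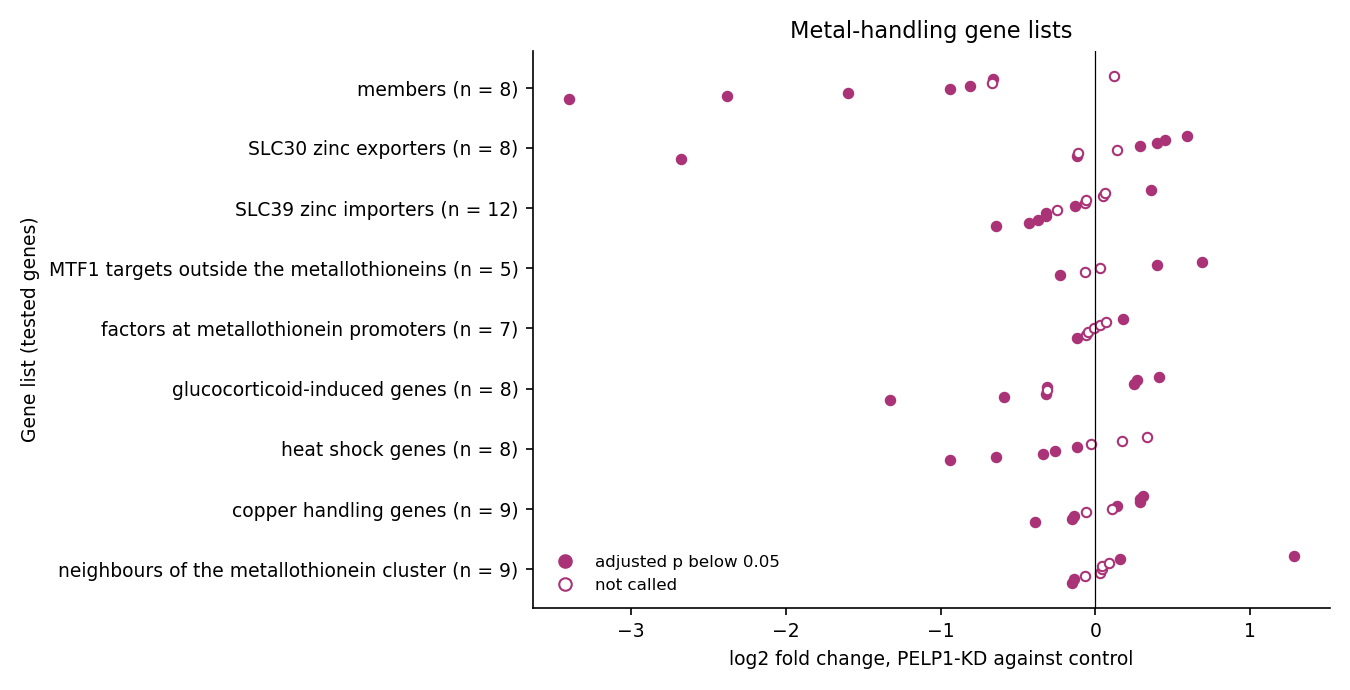
Log2 fold change of PELP1-KD against control (x axis) for each tested gene of the members and of 8 lists (y axis). Filled points have an adjusted p below 0.05, and the called members lie between −3.40 and −0.66.

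The genes whose levels over the 6 libraries lay nearest to those of the summed metallothionein reads were sought among the 11765 genes that averaged at least 100 normalized reads. Likeness was the root mean square difference between the centred log2 values. Among the 5 nearest were NEDD9 (0.043), SLC43A3 (0.044), SHPK (0.047) and FRY (0.047). Their log2 fold changes lay between −1.25 and −1.20. With 3 libraries in each group, a gene is near when it falls by a similar amount, so these genes describe the size of the change.

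Markers of other cell types had few reads. Their summed normalized reads were between 261 and 302 in control and between 180 and 201 in PELP1-KD. In every library the same 6 of the 9 markers had at most 5 reads, and KDR, of endothelial cells, had 0 in all libraries. CD14, a monocyte marker that hepatocytes also make, fell from a mean of 176 ± 26.0 to one of 89.0 ± 1.76 normalized reads (SD, n = 3 in each group). The summed hepatocyte markers were between 873768 and 879901 in control and between 831900 and 840462 in PELP1-KD. Within that sum the markers moved in both directions, and 5 of 9 were called lower and 4 higher. ALB, TTR and SERPINA1, which encode plasma proteins, had log2FC of −0.61, −0.61 and −0.46. AFP, a fetal liver protein, KRT18 and KRT8, keratins of epithelial cells, had 0.62, 0.38 and 0.33. The part of these differences in the metallothionein result was not tested.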

How the data were processed

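RNA-seq of 6 Hep3B libraries was analysed, 3 control and 3 PELP1-KD, grouped by their labels. The authors deposited estimated counts per gene and library without normalization. Per the file headers, featureCounts v1.5.0-p1 counted stranded reads on hg19 exons at a mapping quality of at least 2, and reads that matched several places or genes entered as fractions. Sources conflict on the aligner (TopHat2 in the methods, HISAT2 in the submitters' processing notes), on the counter (HTSeq in the methods), on the extraction kit, on whether reads were single or paired, and on mRNA selection or removal of ribosomal RNA. Between 10.6% and 13.3% of a library's values were not whole, and all were rounded. The tables hold no rows that name no gene.

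Genes were kept by edgeR's filterByExpr (about 0.310 CPM, or 10 reads in a library of median size, in at least 3 libraries) and tested with edgeR 4.0.16 (TMM, glmQLFit with robust estimation, glmQLFTest, in R 4.3.3). The p-values of the 14537 tested genes were adjusted by Benjamini-Hochberg. To normalize, each library's reads were divided by its effective size (TMM), scaled to a geometric mean of 1 over libraries, and RPKM use the deposited exon lengths. Intervals of 95% use the total degrees of freedom of the fit. Log ratios to MT2A used reads plus 0.5. The median standard error of a log2 fold change was 0.063. The procedure was tested on simulated counts. Replicates of a group differed by more than sampling noise (chi-square over its degrees of freedom, 1.94 to 7.02), so none was counted as a copy of another.

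To check the pairing, deviations from the group means were correlated across 6370 genes, which are not independent of each other. Libraries 1, 2 and 3 of both groups gave r = 0.336, 0.247 and 0.666. The second control library gave r = 0.418 with the first PELP1-KD library, so replicates 1 and 2 are not told apart, and the pairing comes from the numbers in the labels.

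Alternatives were edgeR with upper-quartile normalization or with the size factors of DESeq2, DESeq2 1.42.0 itself, no filter, at least 10 reads in every library, values not rounded or rounded down, the replicate block, and each library left out. The 9 members and all lists were chosen with earlier results of these data known. The text names all members, PELP1, other metallothionein genes with a read, and of each list the genes called with at least a 2-fold change or, with fewer than 3 of these, the 3 with the smallest p. CRISPLD2, BBS2, SLC39A7, HSPA1A, HSPA1B, CD14, KDR and the 6 hepatocyte markers were named after their values had been seen. Sequences were read from GRCh37 (hg19), and 38 of 39 introns of the listed metallothionein genes and MTF1 had GT and AG ends. Some genes and sequences that these rules select are not reported here.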

Additional observations from a re-analysis of the deposited data

How the results depend on the processing

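Of 280 values recomputed under 14 alternative fits or, for the share of MT2A, other treatments of the reads, 267 stayed the same and 0 reversed. Same meant the direction and side of the threshold for a fold change, and within 1.5 times for a count. For the share it meant a move smaller than the larger group SD. The total includes MT1M and MT1G, whose direction the filter fixed, and the count of members called higher, 0 in every fit. MT2A, MT1E, MT1F and MT1X were called lower in every alternative fit. MT1M and MT1G were also called in the 13 fits that tested them, but they passed the filter only through the control libraries, so their direction is no sign of stability. With at least 10 reads in every library, MT1M and MT1G were not tested and 0 other metallothionein genes were called, in place of 1, because MT1L was no longer tested. With the replicate block, MT1A (−0.68, adjusted p = 0.0473) and PELP1 (−0.08, adjusted p = 0.0106) were called, and no other member's call changed. The cause was not tested. With each library left out in turn, MT1A lay between −0.90 and −0.46 and PELP1 between −0.10 and −0.04. In these fits the called factors at metallothionein promoters numbered between 1 and 3 (1 without control replicate 2), the copper handling genes between 3 and 6 (3 without control replicate 1 or PELP1-KD replicate 2), and the neighbours between 2 and 4. Fewer samples enter these fits. With a library left out, the genes called over all tested genes numbered between 6766 and 7938. Over all 14 alternative fits the highest number was 8828, with the replicate block. MT1H with no filter had a fitted value of −6.35 (adjusted p = 4.91e-06), which depends on the prior count and is no bound. Depth limits MT1H, MT1G, MT1M and MT1A, with at most 73 reads in a library.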
